A study of Homo sapiens with 3 samples.

Results

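The transcriptome described here is that of the negative control culture of AsPC-1, an established human pancreatic cancer cell line, and it was chosen by its label as the control siRNA sample. It is 1 library (siNC) of 3, and the deposited table gives its level for 16463 genes, all of which have at least 1 read in every library. The study filtered out low-quality transcripts, so a gene that is not in the table may still have had reads in siNC. The study asked what changes in AsPC-1 when the long non-coding RNA LINC00941 is knocked down. The siNC cells carry no engineered change (labelled WT), received a non-specific control siRNA at 200 nM, and gave total RNA on day 1, 24 h after transfection. The 2 other cultures received si#1 or si#2, which target LINC00941, at the same dose and time. Since siNC is 1 culture with no replicate, its values carry no biological error and no test between genes or conditions was made. As a scale, the TPM of the same gene in si#1 and si#2 is compared below, which also holds any effect of those siRNAs.

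Pancreatic ductal cancers arise from an organ of enzyme-secreting acinar cells, hormone-secreting islets and mucus-lined ducts, and their cells keep an epithelial program built on keratins and cell-cell junctions. Tumors of this kind are often graded as classical, with gastrointestinal and foregut genes, or as basal-like, with squamous and keratinized genes. Total RNA libraries also hold RNAs without a poly(A) tail, such as the RNAs of the signal recognition particle, of RNase P and of splicing, and histone mRNAs.

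The siNC library held 88690997 reads in the listed genes, against 92510692 with si#1 and 90867405 with si#2. A gene had a median of 1180 reads in siNC. Levels are given in TPM (each transcript as a share of all transcripts, corrected for transcript length and depth by the authors), so that genes can be compared, and their median was 6.39 TPM over all genes and 11.3 TPM over protein-coding genes. For 10172 genes the exact Poisson interval of the read count (95%) lay within 10% of the count. These intervals cover counting error only. For protein-coding genes at 1000 TPM or more, the TPM of si#1 and si#2 differed by a median of 0.07 on the log2 scale, and 90% of them by no more than 0.23. The same values were 0.17 and 0.44 between 10 and 100 TPM, 0.22 and 0.62 between 1 and 10 TPM, and 0.83 and 2.28 under 0.1 TPM. The order of 2 genes closer than this is not settled by the library.

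The transcripts of highest TPM in the siNC library were short structural RNAs. RN7SL1 reached 120346 TPM and RN7SL2 106850 TPM, both the RNA of the signal recognition particle, which leads secretory proteins to the endoplasmic reticulum. RN7SK, which restrains the elongation factor P-TEFb, had 61238 TPM. RPPH1, the RNA of RNase P, which trims tRNA precursors, had 48665 TPM, and RMRP, the RNA of RNase MRP, had 31783 TPM. With RN7SL3 (10616 TPM) these 6 RNAs took 37.96% of the summed TPM and 7.95% of the reads. They had 16.2 to 20.6 reads per TPM, against a median of 195 reads per TPM in protein-coding genes, so that a share of TPM weights them far more than a share of reads.

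RN7SL1 and RN7SL2 head the ranking and are near-identical in sequence. Both lie on chromosome 14 of GRCh38 at their RefSeq positions, RN7SL1 on the plus strand (chr14:49586580-49586878) and RN7SL2 on the minus strand (chr14:49862551-49862849), and each is 299 bases long. The alignment of RN7SL2 with RN7SL1 held 4 differing bases (98.7% identity). RN7SL3, the third copy of chromosome 14, was 97.7% identical to RN7SL1 with 10616 TPM. The pseudogene RN7SL4P on chromosome 3 had 7920 TPM and is shorter, with 252 of its 272 bases the same as in RN7SL1. Its identity was 84.3% with the missing bases counted as differences. How the counting shares reads between such copies is not stated in the sources, so the split of the 7SL signal over these 4 genes is uncertain.

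Other small RNAs were uneven. SNORD3A, the U3 RNA that acts in ribosomal RNA processing, had 10977 TPM, far above the next snoRNAs, which were SNORD3B-2 (695.9 TPM), SNORD3B-1 (543.6 TPM), SNORD3D (392 TPM) and SNORA73A (384 TPM). SCARNA2, a guide RNA of the Cajal body, had 522 TPM, and TERC, the RNA template of telomerase, had 113 TPM. The spliceosomal RNAs were low in the table, with 23.6 TPM (235 reads) for RNU1-1, 7.71 TPM for RNU4-2, 1.52 TPM for RNU5A-1 and 1.46 TPM for RNU6-1, and RNU2-1 was not in the table. The vault RNA VTRNA1-1 had 3.15 TPM and the Y RNA RNY1 2.07 TPM, while RNY3, RNY4, RNY5 and VTRNA1-3 were not in the table. Of the 31 structural RNAs in the list, 26 were listed and 12 reached 10 TPM, a level that 42.1% of all listed genes reached. Many of these RNAs have several near-identical copies, so single values are uncertain. Whether RNA isolation and library preparation kept RNAs of all lengths alike was not tested. These values are thus levels in the library and may differ from those in the cells.

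By biotype, protein-coding genes made up 12548 of the 16463 genes, 90.3% of the reads and 57.8% of the summed TPM. The signal recognition particle RNAs (scRNA, 3 genes) took 23.8% of the TPM and 4.85% of the reads. The snRNA class took 6.15% of the TPM, nearly all of it RN7SK. The table also held 1549 pseudogenes (1.44% of the TPM), 1153 lncRNAs (0.408%), 283 snoRNAs (1.66%), 281 miRNA genes (0.224%) and 409 transcribed pseudogenes (0.15%). Without RN7SL1 the protein-coding share of TPM was 65.7%.

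**Figure D1:**
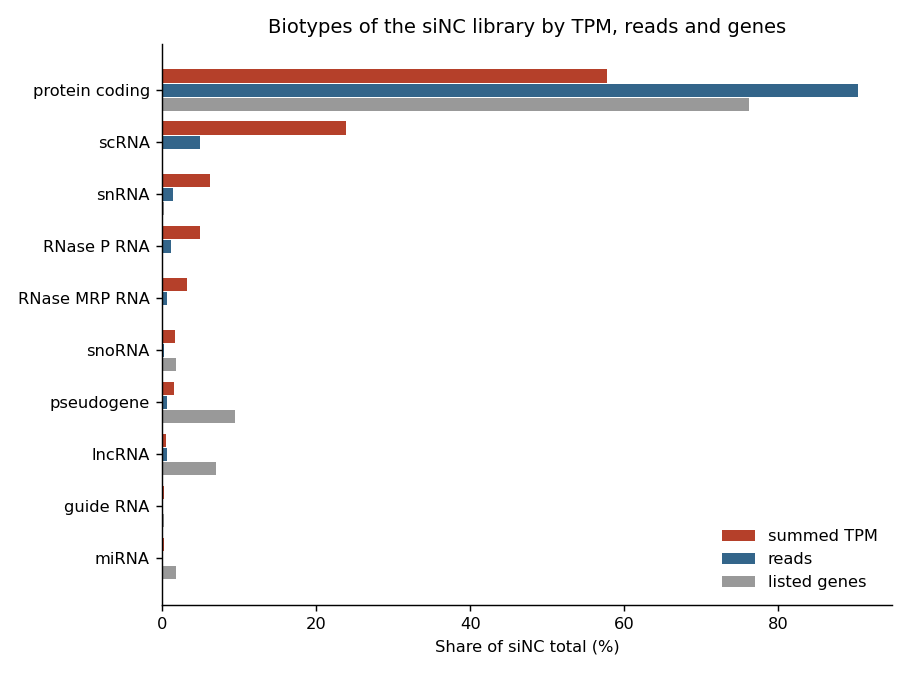
Share of the siNC total (%, x axis) held by the 10 biotypes with the highest summed TPM, for summed TPM (red), reads (blue) and number of listed genes (gray). Protein-coding genes hold 57.8% of the TPM and 90.3% of the reads, while 3 scRNA genes hold 23.8% of the TPM and 4.85% of the reads.

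Of the listed genes, 11996 (72.9%) were at 1 TPM or more and 6923 (42.1%) at 10 TPM or more. Among protein-coding genes the counts were 10572 of 12548 (84.3%) and 6602 (52.6%), and 1005 (8.01%) reached 100 TPM. For lncRNAs they were 428 and 54 of 1153, with a median of 0.604 TPM, and for pseudogenes 344 and 97 of 1549. The levels were concentrated in few genes, in that 53 genes held 50% of the TPM, but 743 genes were needed for 50% of the reads. Among protein-coding genes alone, 416 genes held 50% of their TPM, and the 100 highest held 28.0%. By gene ID, 12522 of 20056 RefSeq protein-coding genes (62.4%) and 1145 of 18330 RefSeq lncRNA genes (6.25%) were in the table. The listed share of protein-coding genes was 45.8% on chromosome X and 71.4% on chromosome 16, the lowest and highest of the nuclear chromosomes other than Y, which was not analysed here.

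**Figure D2:**
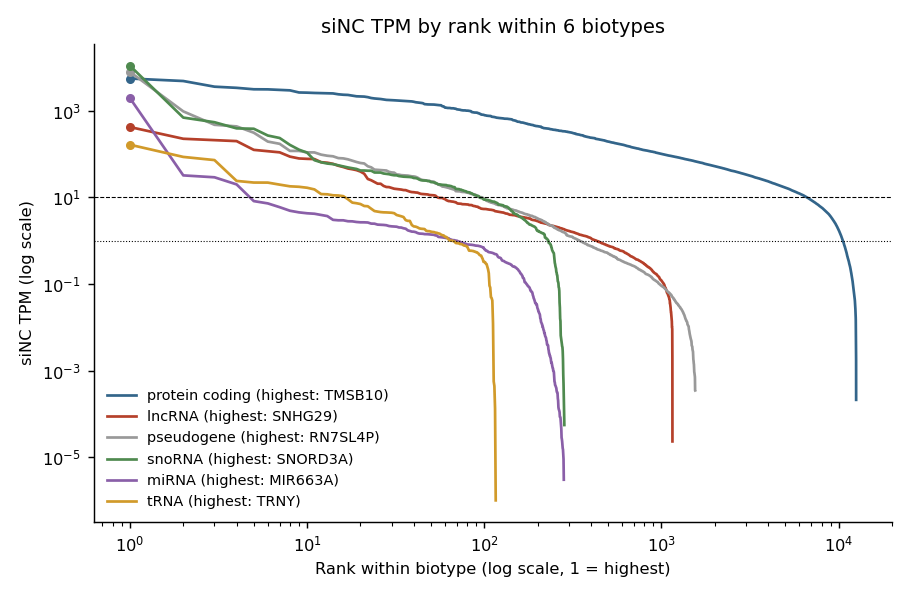
siNC TPM (y axis, log scale) of every gene above 0 TPM against its rank within its biotype (x axis, log scale) for 6 biotypes, with a point on the highest gene of each and horizontal lines at 1 and 10 TPM. The protein-coding curve stays above 10 TPM for 6602 genes and the lncRNA curve for 54, while MIR663A stands alone above the other miRNA genes.

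The highest protein-coding gene was TMSB10, an actin-sequestering thymosin, with 5555 TPM and 154876 reads. EEF1A1, the elongation factor that brings aminoacyl-tRNA to the ribosome, had 4865 TPM and, being longer, 1033324 reads. The next were RPS2 (3600 TPM), KRT8 (3385 TPM), KRT18 (3134 TPM), ARPC1B (3120 TPM), GAPDH (3031 TPM) and HSPA8 (2959 TPM), a cytosolic chaperone of the HSP70 family. RPL30 (2644 TPM), S100A6 (2619 TPM), ACTB (2578 TPM), TUBA1B (2557 TPM), RPL7A (2537 TPM), RPS24 (2514 TPM) and the nucleolar protein NPM1 (2401 TPM) followed. RPS18 (2345 TPM), RPLP0 (2320 TPM), RPL6 (2228 TPM), KRT19 (2157 TPM) and RPS7 (2142 TPM) closed the first 20. In this order, 1 of the 19 steps between neighbours, that below EEF1A1, was larger than 0.23 on the log2 scale, the value that bounds 90% of the differences between si#1 and si#2 at this level. KRT8 is among the less settled, with 2042 TPM in si#1 and 3889 TPM in si#2.

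Ribosomal protein genes were the largest single block of coding signal. The 79 listed cytosolic genes, of 79 in RefSeq under the same symbols, summed to 14.6% of the protein-coding TPM with a median of 907 TPM, and 43 of them were among the 100 highest protein-coding genes. They ran up to 3600 TPM in RPS2, and RPL28 was the lowest with 30.5 TPM and 5870 reads. All 20 translation factors of the list were above 10 TPM (52.6% of listed protein-coding genes were), led after EEF1A1 by EEF1G (1678 TPM), EEF1B2 (1161 TPM) and EIF4A1 (1114 TPM), the helicase of cap-dependent initiation. EIF4E, the cap-binding protein, was the lowest with 14.8 TPM. Copies of these genes were among the highest pseudogenes after RN7SL4P, with EEF1A1P5 at 968 TPM, RPS2P5 at 436 TPM and EEF1A1P6 at 311 TPM, and RN7SKP80, a copy of RN7SK, had 474 TPM. Reads of a copy and its parent cannot always be told apart, so these values are uncertain.

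Histone genes formed the other block. Replication-dependent histone genes make the nucleosome proteins needed while DNA is copied, and their mRNAs end in a stem-loop and not in a poly(A) tail. Of these genes 64 were listed, 60 were at 10 TPM or more (52.6% of listed protein-coding genes were), and their median was 481 TPM. Together they summed to 5.62% of the protein-coding TPM and 1.08% of all reads, and 14 were among the 100 highest protein-coding genes. The H4 genes were the highest group with a median of 683 TPM, led by H4C15 (1141 TPM), H4C14 (1139 TPM) and H4C4 (1080 TPM). H2A genes had a median of 522 TPM with H2AC11 on top (782 TPM), H3 genes 383 TPM with H3C2 on top (989.5 TPM), and H2B genes 342 TPM with H2BC9 on top (905 TPM). Among linker histones, H1-5 had 1035 TPM and H1-2 1018 TPM, but H1-1 had 0.16 TPM. H4C6 (0.449 TPM) and H3C8 (2.43 TPM) were the lowest core genes of their groups. Histone genes of 1 type share much of their sequence, so the split between members is uncertain. The sums are uncertain too, since reads that match several copies may have been counted more than once.

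The upstream sequences of these genes differed from those of most listed genes. The 60 bases before the RefSeq start (GRCh38.p14, 5′ to 3′ on the strand of the gene) are shown for the highest H1, H2A, H2B and H3 gene and, for comparison, for the highest protein-coding genes, TMSB10 and EEF1A1. In these 6 genes the start is the outer end of the RefSeq gene, as it is in 24245 of all 27305 promoter entries (88.8%), while the other entries start inside the gene and none of them is shown. Capitals mark TATAAA or TATATAA, the letters of a TATA box, where they lie 40 to 15 bases before the start on the same strand.
H1-5: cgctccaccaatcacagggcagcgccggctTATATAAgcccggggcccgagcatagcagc
H2AC11: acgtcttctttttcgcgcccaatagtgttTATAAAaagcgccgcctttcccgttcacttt
H2BC9: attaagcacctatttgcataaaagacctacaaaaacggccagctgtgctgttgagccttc
H3C2: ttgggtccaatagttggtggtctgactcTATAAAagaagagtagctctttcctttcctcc
TMSB10: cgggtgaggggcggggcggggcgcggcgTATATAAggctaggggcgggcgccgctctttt
EEF1A1: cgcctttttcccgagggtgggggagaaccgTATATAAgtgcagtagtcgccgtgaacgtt
These stretches lie at chr6:27867589-27867648 (minus) for H1-5, chr6:27132983-27133042 (plus) for H2AC11, chr6:26251554-26251613 (plus) for H2BC9 and chr6:26032100-26032159 (minus) for H3C2. They lie at chr2:84905596-84905655 (plus) for TMSB10 and chr6:73521033-73521092 (minus) for EEF1A1. The letters begin 30 to 32 bases before the start in the 5 genes that hold them. H2BC9 does not hold them there, which says nothing about what binds its promoter.

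TATAAA or TATATAA (which overlap where the second is followed by another A, and the second of which was added after these sequences were seen) lay near the start of 36 of 59 histone promoters (61.0%), against 228 of 10288 promoters of listed protein-coding genes (2.22%) and 809 of all 27305 RefSeq promoters (2.96%). With TATAAA alone the shares were 54.2% for histone genes and 2.55% for all promoters. TATAAA on either strand anywhere in the 250 bases before the start was found in 66.1% of histone promoters and in 11.1% of all promoters. Across levels, the share with either motif near the start was 4.11% under 0.1 TPM, 2.89% between 0.1 and 1 TPM, 1.63% between 1 and 10 TPM and 1.24% between 10 and 100 TPM. It was 7.16% between 100 and 1000 TPM and 20% (13 of 65) at 1000 TPM or more. With TATAAA alone the shares of these 6 classes were 3.86%, 2.10%, 1.48%, 1.09%, 6.51% and 10.8% (7 of 65), so the lowest share lay in the middle of the range with either choice. TMSB10 and EEF1A1, whose sequences led to the addition of TATATAA, are themselves in the highest class. Without histone and ribosomal protein genes, either motif was found in 4.05% between 100 and 1000 TPM and in 20% (6 of 30) at 1000 TPM or more, and TATAAA alone in 3.32% and 10% (3 of 30). Over promoters that start at the outer end of the gene, either motif was found in 62.1% of histone promoters and in 21.4% (12 of 56) at 1000 TPM or more. Ribosomal protein genes held a motif in 6.35% (4 of 63) of their promoters. Protein-coding genes that are not in the table held one in 7.98% of 5554 promoters and had a median of 6 CG dinucleotides in the 250 bases, against 21 in listed genes and 9 in histone genes. Promoter entries existed for 82.0% of the listed protein-coding genes. A match to these letters is a description of the window and not a mapped site.

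**Figure D3:**
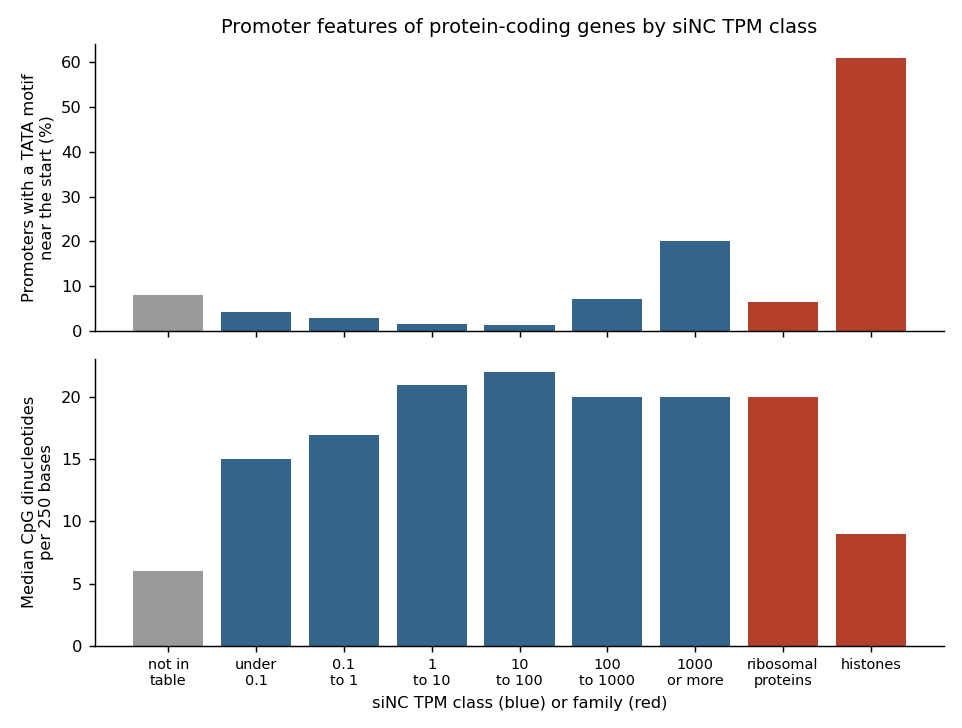
Top, share of promoters (%) with TATAAA or TATATAA 40 to 15 bases before the start on the same strand, and bottom, median number of CG dinucleotides in the 250 bases before the start, for protein-coding genes not in the table (gray), by siNC TPM class (blue) and for ribosomal protein and histone genes (red). The share is 4.11% under 0.1 TPM, 1.24% between 10 and 100 TPM, 20% at 1000 TPM or more (10.8% with TATAAA alone) and 61.0% in histone genes.

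The label of the line was checked against cell type markers. Of 20 ductal and general epithelial markers, 17 were in the table and 11 reached 10 TPM, against the background of 52.6% of listed protein-coding genes. The simple-epithelium keratins led, with KRT8 at 3385 TPM, its partner KRT18 at 3134 TPM and KRT19 at 2157 TPM, and the 3 took 0.925% of all reads. The adhesion molecule EPCAM had 605 TPM, and the protease inhibitor SPINT2 had 280 TPM. The tight junction protein CLDN4 had 111 TPM, whereas CDH1, the E-cadherin of adherens junctions, had 10.9 TPM. SOX9, a duct transcription factor, had 7.27 TPM and the ductal keratin KRT7 had 1.94 TPM (191 reads, 95% interval 165 to 220.1 for counting error). CFTR, the anion channel of ducts, and GRHL2 were not in the table. Other keratins were far lower, and 10 of 55 keratin genes were listed, with KRT80 (11.3 TPM) the fourth.

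Markers of other cell types were mostly not in the table. Over the acinar, islet, mesenchymal, fibroblast, endothelial and immune lists, 24 of 89 markers were listed and 8 reached 10 TPM. Of all RefSeq protein-coding genes 62.4% were listed, and 52.6% of the listed ones reached 10 TPM. Of 20 acinar genes 3 were listed, with PRSS3, a trypsinogen, at 79.4 TPM and CEL and AMY2B under 1 TPM. Trypsinogens PRSS1 and PRSS2, the carboxypeptidases CPA1 and CPB1, and the lipase PNLIP were not in the table. Of 20 islet genes 4 were listed, with the transcription factor ISL1 at 10.4 TPM, and the hormone genes INS, GCG and SST were not in the table. Among immune markers CD68, a lysosomal protein, had 25.9 TPM, LYZ had 3.47 TPM, and PTPRC, CD3E and ITGAM were not in the table. Among endothelial markers EGFL7 had 68.1 TPM, and PECAM1, CDH5 and KDR were not in the table.

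Of 12 mesenchymal markers 6 were listed and 3 reached 10 TPM (50% of those listed), near the 52.6% of all listed protein-coding genes. At 20 TPM the count was 1. VIM, the intermediate filament of mesenchymal cells, had 1783 TPM. The transcription factors SNAI2 and ZEB1, repressors of epithelial genes, had 14.4 and 11.6 TPM, near the protein-coding median of 11.3 TPM. CDH2, FN1, TWIST1, TWIST2, SPARC and CDH11 were not in the table, and ACTA2 had 0.238 TPM, SNAI1 0.208 TPM and ZEB2 0.0196 TPM. In the fibroblast list LUM, a matrix proteoglycan, had 168 TPM, but the collagens COL1A1 and COL1A2 and the receptors PDGFRA and PDGFRB were not in the table. The values are means over a dish, so that a few cells with much RNA and many cells with little cannot be told apart.

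The classical and basal-like gene lists were both partly present. Of 25 classical genes 17 were listed and 7 reached 10 TPM, and of 25 basal-like genes 12 were listed and 5 reached 10 TPM. These shares of the listed members (41.2% and 41.7%) were both below the 52.6% of all listed protein-coding genes. Led by the intestinal cadherin CDH17 (595 TPM), the classical list had TSPAN8 (377 TPM), the adhesion molecule CEACAM6 (328 TPM), the galectin LGALS4 (130 TPM) and the disulfide isomerase AGR2 (89.8 TPM). The trefoil factors were low, with TFF2 at 3.01, TFF3 at 0.956 and TFF1 at 0.477 TPM, and AGR3, KRT20, ANXA10 and VSIG2 were not in the table. In the basal-like list the glucose transporter SLC2A1 had 125 TPM, DHRS9 77.5 TPM, the EGFR ligand AREG 75.0 TPM, FGFBP1 66.3 TPM and FAM83A 53.5 TPM. S100A2 (6.92 TPM) and KRT15 (5.55 TPM) followed, and the squamous keratins KRT6A, KRT6C and KRT17 and the SPRR genes SPRR1B and SPRR3 were not in the table. The median of the listed members was 3.47 TPM for the classical and 6.24 TPM for the basal-like list. With members not in the table set to 0 the order turned, with 1.14 TPM for the classical and 0 TPM for the basal-like list, so the medians do not place the library on either side.

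**Figure D4:**
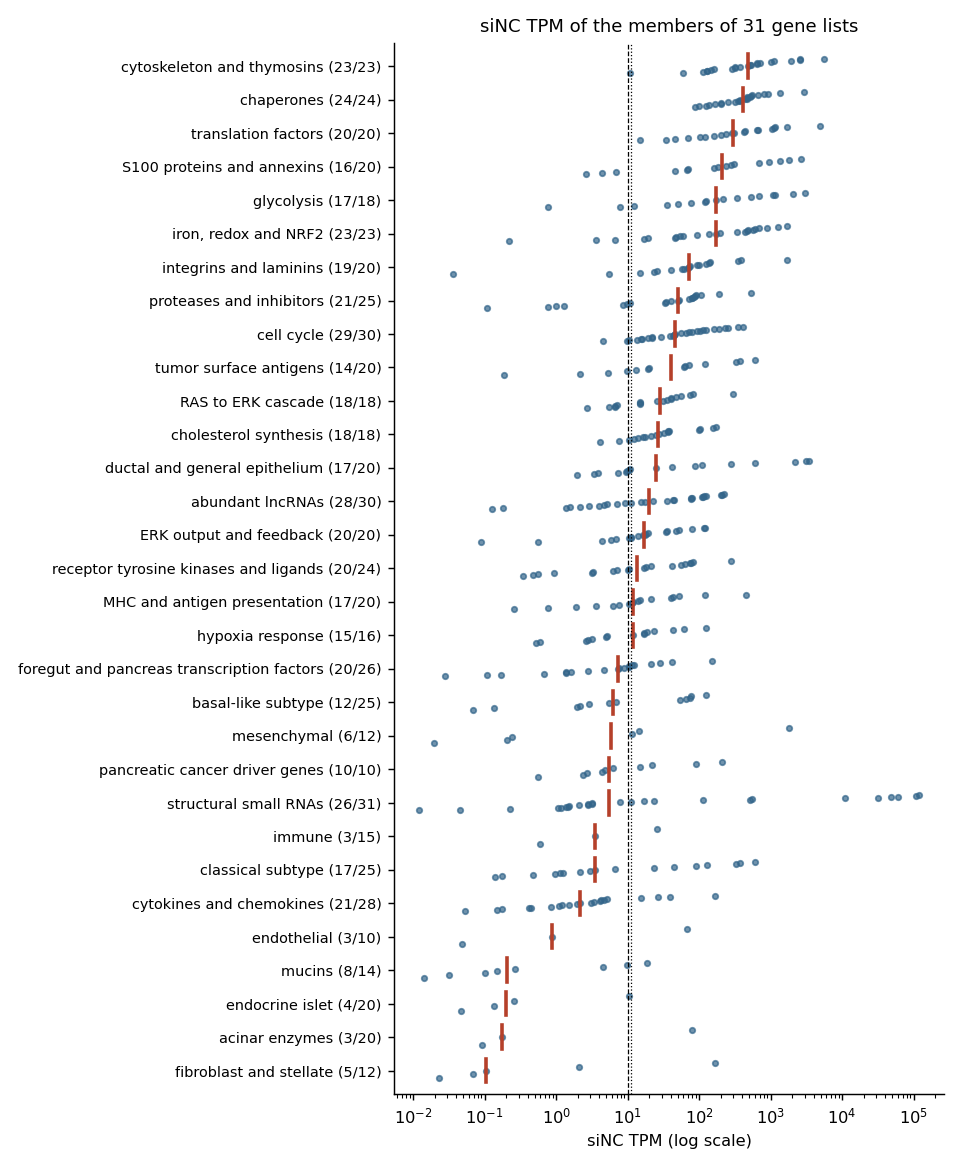
siNC TPM (x axis, log scale) of the members in the table (blue points) of 31 gene lists, with the median of the listed members (red bar) and, after each name, how many of the list were listed. The dashed line is 10 TPM and the dotted line the median of protein-coding genes, 11.3 TPM. Cytoskeleton, chaperone and translation lists lie mostly above 100 TPM, and acinar, islet and fibroblast lists have a median under 1 TPM with 1 gene each above 10 TPM.

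Transcription factors of the foregut and pancreas were mostly low to middling. Of 26 factors 20 were listed and 8 reached 10 TPM (40% of those listed), below the 52.6% of all listed protein-coding genes. At 20 TPM the count was 4. The epithelial ETS factors EHF and ELF3 had 153 and 42.3 TPM, the nuclear receptor NR5A2 28.4 TPM, KLF5 21.3 TPM and the hepatocyte factor HNF4A 12.2 TPM. GATA6, a marker of classical tumors, had 7.47 TPM and FOXA1 1.35 TPM. PDX1, the master factor of the pancreas, had 0.681 TPM (108 reads), and FOXA2, PTF1A and NKX6-1 were not in the table. Position genes of the HOX clusters were listed for 26 of 39 members with a median of 2.04 TPM, led by HOXA10 (34.4 TPM), HOXB7 (23.6 TPM), HOXA13 (12.5 TPM) and HOXA11 (10.1 TPM).

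All 10 listed driver genes of pancreatic cancer were detected, and 4 reached 10 TPM (the background among protein-coding genes is 52.6%). GNAS, a stimulatory G protein subunit, had 209 TPM, and the receptor TGFBR2 had 90.4 TPM. The cell cycle inhibitor gene CDKN2A had 21.7 TPM (1522 reads). KDM6A had 6.19 TPM, KMT2D 4.80 TPM, SMAD4, the common mediator of TGF-beta signals, 4.42 TPM, ARID1A 2.72 TPM and RNF43, which removes Wnt receptors, 2.40 TPM.

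The RAS to ERK cascade carries signals of growth factor receptors to the nucleus, and the study's question concerns an lncRNA linked to it. Of 18 cascade genes 18 were listed and 13 reached 10 TPM, beside a background of 52.6% among listed protein-coding genes. The inhibitor PEBP1 had 298 TPM, the adaptor SHC1 82.5 TPM and the kinase MAP2K2 73.5 TPM, while MAPK3 had 6.61 TPM and BRAF 6.55 TPM. The RAS genes NRAS and HRAS had 40.8 and 34.95 TPM. Of 20 genes that ERK induces or that feed back on it, 15 reached 10 TPM, among them EPHA2 (119 TPM), IER3 (117 TPM) and the ERK phosphatases DUSP6 (80.3 TPM) and DUSP4 (51.5 TPM). At 20 TPM the count was 7 of 20. DUSP5 had 0.0893 TPM from 14 reads. Upstream, 12 of 20 listed receptors and ligands reached 10 TPM, which is near that background. MET, the receptor of hepatocyte growth factor, had 282 TPM and EGFR 81.9 TPM. The EGFR ligands EREG (76.3 TPM), AREG (75.0 TPM) and TGFA (63.1 TPM) were listed, whereas EGF, HGF and ERBB4 were not in the table.

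The lncRNAs were headed by hosts of small nucleolar RNAs. SNHG29 had 421 TPM, SNHG5 210 TPM, GAS5 199 TPM, ZFAS1 125 TPM, SNHG1 117 TPM, SNHG32 87.2 TPM, SNHG8 79.0 TPM and SNHG16 77.5 TPM. MALAT1, a nuclear speckle RNA, had 225 TPM and with 119702 reads had the most reads of these 10 genes, and NORAD, which binds PUMILIO proteins, had 109 TPM. The 10 held 40.4% of the lncRNA TPM. LINC00941, the lncRNA the study knocks down, had 13.5 TPM from 1551 reads (95% interval 1475 to 1630 for counting error), rank 38 among 1153 lncRNAs and rank 5918 among all genes. Of the 8 lncRNAs the study followed it was the one above 10 TPM. NEAT1 was near that threshold with 9.28 TPM, and its 8637 reads were more than those of LINC00941. Below it were LINC-PINT (6.66 TPM), SNHG4 (5.21 TPM), SPRY4-IT1 (2.54 TPM), SNAI3-AS1 (1.42 TPM), CCDC18-AS1 (1.16 TPM) and PRR7-AS1 (0.193 TPM). Of the coding genes it followed, F3, tissue factor, had 40.1 TPM, the tetraspanin CD82 15.9 TPM, E2F7, a repressor of cell cycle genes, 9.73 TPM, and TNNC1 0.425 TPM from 18 reads. Overlapping and antisense genes are uncertain, since no source used here states whether the counting was by strand.

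Among miRNA genes 1 stood apart. MIR663A had 1960 TPM and 10642 reads, which is 85.0% of the reads in the miRNA class, and MIR5047 was next with 32.1 TPM and 196 reads. MIR3064 (29.1 TPM), MIR1304 (19.9 TPM) and MIR3916 (8.18 TPM) followed. MIR663A had 796 TPM in si#1 and 821 TPM in si#2. Of 326 miRNA genes, with those without a biotype, 276 had under 10 reads. A library of this kind counts fragments over the precursor gene and not the mature miRNA. The mature sequences from RefSeq (GRCh38.p14, 5′ to 3′) of the 2 highest genes are shown with the seed, bases 2 to 8, in capitals, and their seeds differ.
hsa-miR-663a: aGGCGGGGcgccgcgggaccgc
hsa-miR-5047: uUGCAGCUgcgguuguaaggu
The first lies at chr20:26208243-26208264 on the minus strand and the second at chr17:64501230-64501250 on the minus strand. Among transcribed pseudogenes the highest were CCZ1P-OR7E38P (84.8 TPM), H3P6 (80.5 TPM), LOC728554 (75.8 TPM), SBDSP1 (67.6 TPM) and GTF2IP1 (43.3 TPM). Among tRNA genes they were TRNY (164 TPM), TRR-CCT3-1 (85.9 TPM), TRNS1 (72.6 TPM), TRNP (24.0 TPM) and TRP-AGG2-6 (21.95 TPM), of which TRNY, TRNS1 and TRNP are mitochondrial.

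Mitochondrially encoded genes took a small share. The 13 coding genes, which code for subunits of the respiratory chain and of ATP synthase, were all listed, and with 2 rRNA and 17 tRNA genes they held 85135 reads, 0.096% of all (95% Clopper-Pearson interval 0.0953% to 0.0966%, counting error only). They were far from even. COX3 had 767 TPM and COX1 396 TPM, COX2 had 97.7 TPM, and the other 10 lay between 5.16 TPM (ND6) and 19.6 TPM (ND3). RNR2, the large mitochondrial rRNA, had 7.82 TPM, and the library kit depletes rRNA. No source used here states whether alignments to the mitochondrial genome were filtered, so both the share and the unevenness are uncertain. Nuclear genes of complex I were taken by symbol (NDUFA, NDUFB, NDUFC, NDUFS or NDUFV with a number), which need not match its subunits exactly. Of these genes 37 were listed with a median of 111 TPM, and NDUFB9 was the highest with 486 TPM. NDUFAB1, which these symbols leave out, had 372 TPM.

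Housekeeping groups were high, and their counts at 10 TPM stand beside a background of 52.6% among listed protein-coding genes. Of the list of 24 chaperones, all were above 10 TPM with a median of 404 TPM, led after HSPA8 by the mitochondrial chaperonin HSPD1 (1362 TPM), HSP90AB1 (910 TPM) and HSPE1 (818 TPM). All 23 cytoskeleton genes were above 10 TPM, with TMSB4X at 1923 TPM and MYL6 at 1122 TPM behind TMSB10, ACTB and TUBA1B. The Arp2/3 complex, which nucleates actin branches, was uneven, with ARPC1B at 3120 TPM and ARPC1A at 2124 TPM, against 463 TPM for ARPC2 and 451 TPM for ARPC3. All 46 listed proteasome genes with symbols from PSMA to PSMG, which are not all subunits, were above 10 TPM. Their median was 106 TPM, from PSMB9 (14.7 TPM) to PSMA7 (671 TPM). Of 17 listed glycolysis genes 15 reached 10 TPM, with GAPDH, ENO1 (2062 TPM), LDHA (1138 TPM) and PKM (1072 TPM) on top, and LDHB was not in the table. Of 18 cholesterol synthesis genes 16 reached 10 TPM, with FDPS (169 TPM), CYP51A1 (154 TPM) and FDFT1 (98.6 TPM) among the highest. Of 29 listed cell cycle genes 27 reached 10 TPM, led by PCNA (411 TPM), CCNB1 (344 TPM), CDK1 (249 TPM) and MCM7 (232 TPM), and the inhibitor CDKN1A had 10.3 TPM.

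Iron and redox genes were all listed, and 20 of 23 reached 10 TPM. The ferritin light chain FTL had 1716 TPM, the peroxidase PRDX1 1259 TPM, the ferritin heavy chain FTH1 879 TPM and thioredoxin (TXN) 683 TPM. Among targets of the antioxidant factor NRF2, NQO1 had 559 TPM, AKR1C3 472 TPM and TXNRD1 440 TPM, whereas HMOX1 had 3.57 TPM. The metallothionein MT1E had 476 TPM, MT1X 138 TPM and MT2A 94.7 TPM, and 7 of 11 metallothionein genes were listed. Of 15 listed hypoxia genes 8 reached 10 TPM, a share near the 52.6% of all listed protein-coding genes, with SLC2A1 (125 TPM), P4HA1 (61.6 TPM), DDIT4 (43.0 TPM) and the carbonic anhydrase CA9 (23.5 TPM) on top.

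At the cell surface, 17 of 19 listed integrins, laminins and partners reached 10 TPM, beside a background of 52.6% among listed protein-coding genes. The integrin chain ITGB1 had 1702 TPM, the hemidesmosomal collagen COL17A1 385 TPM, ITGA6 346 TPM and CD151 141 TPM, whereas ITGA1 had 0.0358 TPM. Among S100 proteins and annexins 13 of 16 listed reached 10 TPM, with S100A6 (2619 TPM), S100A4 (1822 TPM), ANXA2 (1343 TPM) and S100A10 (933 TPM) on top, while S100P had 4.32 TPM and S100A8 and S100A9 were not in the table. Of 14 listed tumor surface antigens 10 reached 10 TPM, with EPCAM, TSPAN8, CEACAM6 and CD44 (122 TPM) first, and MSLN had 71.8 TPM. Mucins were low, with 8 of 14 listed and 1 at 10 TPM or more, namely MUC13 (18.5 TPM), followed by MUC1 (9.93 TPM) and MUC17 (4.58 TPM). The gel-forming MUC5B had 0.0321 TPM, and MUC2, MUC5AC and MUC6 were not in the table. Cadherins were led by CDH17 and the desmosomal DSG2 (273 TPM). In the clustered protocadherins 28 of 51 genes were listed with a median of 0.227 TPM and a maximum of 1.84 TPM (PCDHGB2), and 4 of 390 olfactory receptor genes were listed, all under 1 TPM.

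Among proteases, their inhibitors and partners, 15 of 21 listed were at 10 TPM or more, beside a background of 52.6% among listed protein-coding genes. SERPINE2, an inhibitor of serine proteases, had 538 TPM, the cathepsin CTSB 187 TPM, the urokinase receptor PLAUR 106 TPM and CTSL 91.8 TPM. The metalloprotease MMP7 had 80.2 TPM, while MMP2 and MMP9 were not in the table. Of 21 listed members of the cytokine and chemokine list 4 reached 10 TPM, a smaller share than the 52.6% of all listed protein-coding genes. These were IL18 (167 TPM), LIF (26.9 TPM), CXCL8 (15.3 TPM) and LCN2 (39.0 TPM), a lipocalin that the list also holds. IL6, TNF and CXCL10 were not in the table. In antigen presentation 11 of 17 listed genes reached 10 TPM. B2M, the light chain of MHC class I, had 453 TPM, PSMB10 51.8 TPM and HLA-E 43.7 TPM. HLA-C had 14.1 TPM and HLA-B 10.4 TPM, and since HLA genes share sequence their split is uncertain. HLA-DRA, a class II chain, had 11.5 TPM and its activator CIITA 0.773 TPM, and CD274 was not in the table.

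Neighbouring genes were compared along the chromosomes with the median TPM of 15 consecutive listed protein-coding genes. The highest of these medians lay in the histone cluster of chromosome 6, from H1-2 to H2BC8, with 758 TPM. With histone genes left out, the median over 12142 stretches was 11.6 TPM, 1% of stretches were above 41.2 TPM, and the highest lay on chromosome 7 from DYNC1I1 to ARPC1B (chr7:95772554-99394816, RefSeq on GRCh38.p14) with 104.9 TPM. The 6 highest stretches all overlapped this place, and the next was on chromosome 8, from UQCRB to POLR2K, with 62.5 TPM. In the stretch 13 of 15 genes were above 10 TPM, where 52.6% of listed protein-coding genes were, and together the 15 held 0.924% of all reads. That 8 were above 100 TPM, where 8.01% of listed protein-coding genes were, follows from choosing the stretch by its median. Beside ARPC1B (3120 TPM) and ARPC1A (2124 TPM) it held SEM1 (536 TPM), a proteasome subunit, BRI3 (291 TPM), BAIAP2L1 (253 TPM), the ubiquitin ligase SMURF1 (248.8 TPM), the mitochondrial carrier SLC25A13 (178 TPM) and TRRAP (104.9 TPM). Among them DYNC1I1 (1.15 TPM) and BHLHA15 (8.82 TPM) were low. These genes were chosen after their values were seen. In the other libraries TRRAP had 36.4 TPM (si#1) and 37.5 TPM (si#2), and ARPC1A had 2237 TPM (si#1) and 2073 TPM (si#2). With 9 genes to a stretch the same place was highest (248.8 TPM), and with 25 genes too (53.5 TPM). Without ARPC1A and ARPC1B the best-ranked stretch of this place, now from PON3 to SMURF1, had 54.6 TPM, rank 10. The stretch on chromosome 8 was then highest with 62.5 TPM. No gene was left out of the other stretches, so this comparison is unequal and does not show what the first place rests on.

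**Figure D5:**
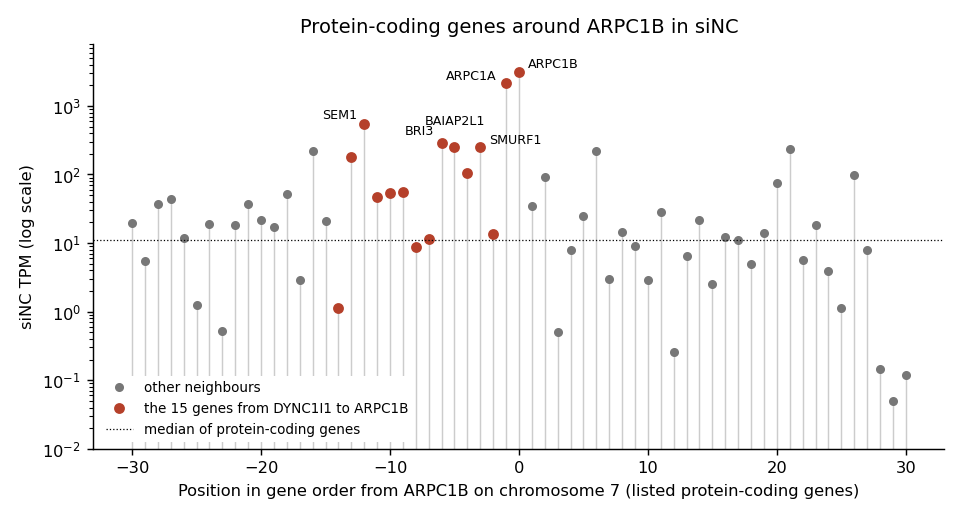
siNC TPM (y axis, log scale) of listed protein-coding genes in their order along chromosome 7 (x axis, position from ARPC1B, 30 genes on each side, histone genes left out). The 15 genes from DYNC1I1 to ARPC1B, chosen for their high median, are in red. Of these, 13 are above 10 TPM (52.6% of listed protein-coding genes are), with ARPC1B and ARPC1A at 3120 and 2124 TPM. The dotted line is the median of protein-coding genes, 11.3 TPM.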

How the data were processed

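Total RNA of AsPC-1 was sequenced in paired reads after preparation with a stranded kit that depletes rRNA. Per the study's methods and the labels, the authors aligned the reads to GRCh38 with HISAT2 and placed them on annotated genes with StringTie, with no versions stated in the sources. As for units, the deposited read counts are whole numbers that were not normalized, and the deposited TPM values were scaled by the authors for transcript length and depth. The column headed FPKM holds the read count in all 16463 genes and was used only for that check. Fold changes and volumes between libraries, which the authors also deposited, were not used. A further 23 columns of single libraries (8 in the first sheet, 15 in the second) were left unmapped and unused.

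Levels were read from siNC TPM without a pseudocount, in Python 3.11.15 (scipy 1.17.1, pandas 2.3.3, numpy 2.4.6, biopython, matplotlib). Gene positions came from RefSeq by gene ID (16437 genes matched, 26 not), and transcript lengths for 1 alternative from GENCODE 44. Read counts have exact Poisson and shares Clopper-Pearson intervals (95%). With 1 siNC library no test was made, and the functions were tested on simulated data. Families were taken by symbol.

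The library, the 33 gene lists and the 21 families were chosen with earlier results of these data known. Genes are named by a rule: the 20 of highest TPM, the 20 highest protein-coding and 10 highest lncRNA genes, the 5 highest of every other biotype with at least 50 genes, and in each list the 4 highest, members absent or under 1 TPM where a count is read from them, and every member of lists of up to 10. Further list and family members are named after their values were seen, to show low or uneven levels. Some items that the rule would name are not reported here. Alternatives were other TPM thresholds, read minimums, summed reads in place of TPM, TPM rescaled over protein-coding genes, and, added after seeing the data, other lengths of the stretches of neighbouring genes, 1 promoter motif in place of both, and promoters that start at the outer end of the gene.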

Additional observations from a re-analysis of the deposited data

How the results depend on the processing

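The number of genes at 1 TPM or more (11996) stayed within 1.5 times under all 5 alternatives (10838 to 13049), and so did the 326 list members at 10 TPM or more under all 3 (265 to 360). By list, 31 of 33 counts stayed within 1.5 times at 5 TPM, 25 at 20 TPM and 31 with rescaled TPM. At 20 TPM the counts that moved further were those of the ERK output list (7, against 15 at 10 TPM), the foregut and pancreas factors (4, against 8), antigen presentation (6, against 11), hypoxia (4, against 8), mesenchymal (1, against 3), islet (0, against 1) and mucin genes (0, against 1) and the lncRNAs the study followed (0, against 1). Mucin genes and these lncRNAs moved at 5 TPM too (2 and 4) and with rescaled TPM (2 and 3). The protein-coding share of 57.8% of TPM was 90.3% of summed reads and 65.7% without RN7SL1, since TPM weights short RNAs by construction. The 53 genes that hold 50% of the TPM became 743 genes for 50% of the reads and 416 among protein-coding genes alone. The mitochondrial share of 0.096% of reads was 0.175% of TPM and 0.103% among protein-coding genes. The median of the classical minus that of the basal-like list, -2.77 TPM, was -3.45 TPM over members with at least 10 reads and -85.6 reads per kilobase of the longest transcript, but 1.14 TPM with members not in the table at 0, which changes its sign. The highest stretch outside the histone clusters, 104.9 TPM, was 248.8 TPM with 9 genes, 53.5 TPM with 25 genes and 62.5 TPM, on chromosome 8, without ARPC1A and ARPC1B. No paired analysis was possible because the results come from no test and each group has 1 library. Depth limits low genes, in that 1526 genes had under 10 reads and 285 had 1 read.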
